A study of Arabidopsis thaliana with 12 samples.

Results

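AT3G23940 is the Arabidopsis thaliana gene for dihydroxy-acid dehydratase, an enzyme that makes branched-chain amino acids in the plastid. It was measured by 1 probe, which the platform annotation assigns to this gene and no other. It is 1 of 689 genes that have a probe of their own among the 3439 probes of the array. The gene was chosen by its intensities in the flu mutant and in wild type, which differed widely, so that difference is described here and not tested.

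Valine and isoleucine are built in the plastid by a shared set of enzymes. Acetohydroxyacid synthase joins the carbon skeletons, ketol-acid reductoisomerase rearranges and reduces them, dihydroxy-acid dehydratase removes water, and branched-chain aminotransferases add the amino group. Leucine synthesis branches off from the oxo acid that the dehydratase supplies on the valine route. The dehydratase carries an iron-sulfur cluster.

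The flu group comprised 6 arrays from the flu mutant and the WT group 6 arrays from wild type, both in the Landsberg ecotype. The mutant lacks FLU, a plastid protein that holds back chlorophyll synthesis at night, and it meets light with an excess of a chlorophyll precursor that generates singlet oxygen. All plants of both groups spent 12 h in darkness and were taken 30 min after the light returned, so higher and lower refer to flu against WT at that single time and not to a change over time. The sources used here do not give the flu allele, the tissue, the plant age or the number of plants behind each array. In such bulk samples, more transcript per cell and more cells of a type cannot be told apart. The platform annotation lists 0 probes for FLU itself, so the genotype was not checked on its transcript.

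Each array held 3439 deposited intensities on a linear scale with a maximum of 100 and a sum between 3247 and 3350. The arrays numbered 1 and 2, 3 and 4, and 5 and 6 within a group resembled each other, so each such pair was averaged and counted as 1 replicate. This gives 3 pair means per group. The sources used here do not state that the pairs stem from separate plants, so errors and p-values cover the spread among these samples alone, which may be technical.

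The AT3G23940 probe was bright on every flu array and dim on every WT array. In flu the deposited intensity was 1.53 and 1.59 on arrays 1 and 2. It was 2.19 and 2.20 on arrays 3 and 4. It was 1.55 and 1.92 on arrays 5 and 6. The second pair was the brightest of the mutant, and its 2 arrays were also the most alike. In WT the intensity was 0.239 and 0.325 on arrays 1 and 2. It was 0.364 and 0.335 on arrays 3 and 4. It was 0.365 and 0.394 on arrays 5 and 6. WT array 1 gave the lowest value of all 12, and the groups did not overlap: the dimmest flu array was 3.89 times as bright as the brightest WT array. Separation of pair means asks for less than separation of single arrays. Over all tested probes, 22.6% had all 3 flu pair means of normalised values above all 3 WT pair means. Since the gene was picked for this contrast, nothing is read from its being among them.

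**Figure D1:**
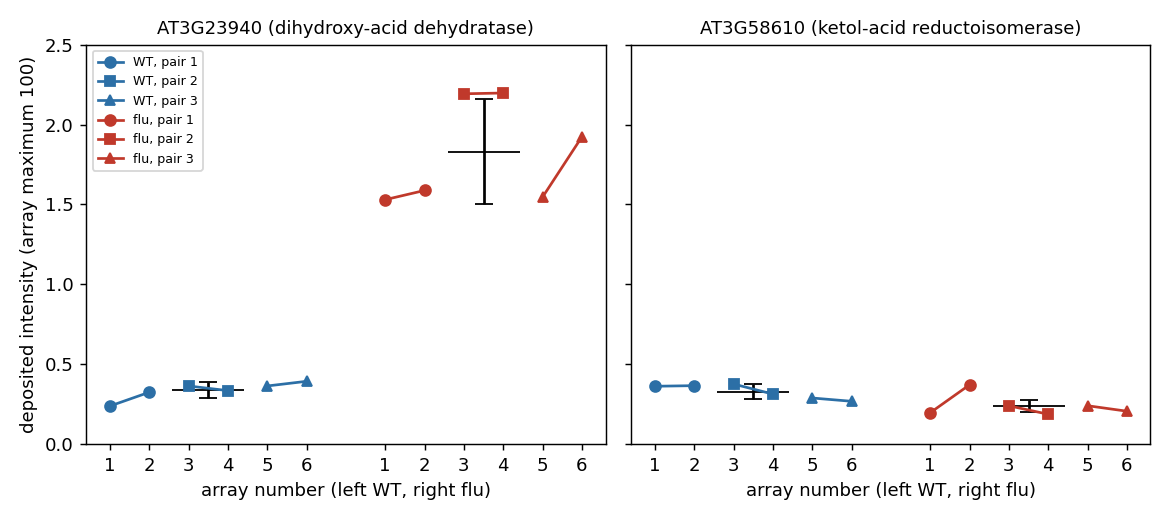
Deposited intensity (linear, array maximum 100) on each of the 12 arrays for AT3G23940 (left) and for AT3G58610, the enzyme one step earlier in the pathway (right). Each point is 1 array, lines join the 2 arrays of a pair, and the black bar is the mean of the 3 pair means with its SD. For AT3G23940 the flu arrays lie between 1.53 and 2.20 and the WT arrays between 0.239 and 0.394. For AT3G58610 the groups overlap through flu array 2 (0.372) alone. Its other flu arrays lie between 0.188 and 0.241 and its WT arrays between 0.269 and 0.377.

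The mean of the pair means was 1.83 ± 0.328 in flu and 0.337 ± 0.0498 in WT in deposited intensity (SD, n = 3 pair means per group), a ratio of 5.43. After quantile normalisation, which gives all 12 arrays the same distribution of values, the means were 1.86 ± 0.344 in flu and 0.312 ± 0.0482 in WT (SD, n = 3). For differences, a floor was set at 0.250, the 25th percentile of the normalised values, and the log2 of the result was used. In WT 1 of the 6 arrays, array 1, was at the floor, and in flu 0 of 6 were. The array medians before normalisation, 0.426 to 0.442 in flu and 0.443 to 0.491 in WT, did not overlap, and quantile normalisation removes this offset. The log2 difference, flu minus WT, was 2.55 with a standard error (SE) of 0.18 from limma, and 2.43 without quantile normalisation. Taking same-numbered pairs of the groups against each other, it was 2.48 for the first pair, 2.86 for the second and 2.30 for the third. The second pair thus gave the widest contrast, and even the third corresponded to a ratio of 4.91.

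Repeat arrays of this probe differed about as much as those of a typical probe. The 2 arrays of a pair differed on average by 0.154 in log2, against a median of 0.169 over all tested probes, and 42.9% of tested probes had a smaller value. These differences were taken after the floor, which raised WT array 1 from 0.222 to 0.250 and so narrowed its pair. Pairs of other probes with an array under the floor were narrowed or set equal too. The SD of the log2 pair means was 0.26 in flu and 0.19 in WT.

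The probe lay in the dimmer part of the WT distribution and near the bright end of that of flu. Counted from the brightest, it ranked 208 of 3439 in flu, the 94.0th percentile, and 2387 in WT, the 30.6th percentile. A probe's intensity depends on its own binding as well as on its transcript, so these ranks describe the probe and not the amount of transcript relative to other genes. Among the 690 probes with 1 matched gene it ranked 31 in flu and 452 in WT. On single arrays the rank was between 170 and 289 in flu and between 1991 and 2699 in WT. The array-to-array range was wider in WT, where the percentile ran from 21.5 to 42.1, than in flu, where it ran from 91.6 to 95.1. The probe median was 0.457 in flu and 0.463 in WT; the AT3G23940 probe was above it in the mutant and below it in wild type.

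The move of 2179 places was the 17th longest upward of all probes. In all, 1 other probe was at least as dim in WT and at least as bright in flu. In the opposite direction, 0 probes ranked 208 or higher in WT and 2387 or lower in flu. Of the 200 probes within 100 places of it in WT, 199 were dimmer than it in flu, where their median was 0.331. Of the 200 probes within 100 places of it in flu, 195 were brighter than it in WT, where their median was 1.48. As an increase in log2, its difference ranked 12 of 3128 tested probes and 2 of the 619 tested probes with 1 gene.

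**Figure D2:**
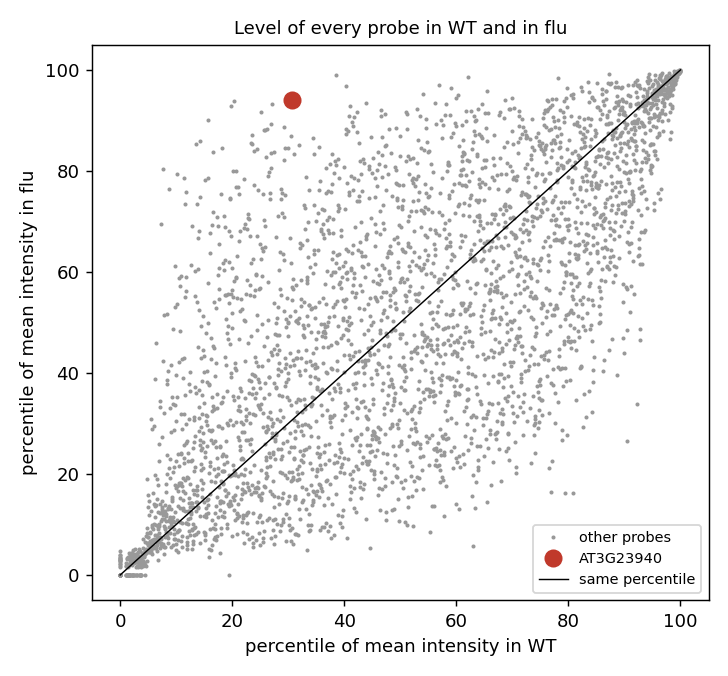
Percentile of the mean normalised intensity in WT (horizontal) and in flu (vertical) for every probe, with the line of equal percentile. AT3G23940, the large point, is at 30.6 in WT and 94.0 in flu, at the upper edge of the cloud for its WT level.

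The difference was also set against those of probes with related numbers. The log2 differences recur along the numbering of the probes with a fixed period, so that probes at the same position within a period tend to differ alike. This position accounted for 33.9% of the variance over the 3128 tested probes, where means over 272 positions would take up 8.67% with no effect at all. The remainder of the number on division by 6 accounted for 3.24%. The pattern is called the probe-number effect here. The sources used here do not say how the probes were numbered, and the period was found on these same data. AT3G23940 is probe 2424, which shares its position with the tested probes 408, 2712, 3000, 3864, 4152 and 4440, and its number is divisible by 6.

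The probes sharing its position were on average higher in flu as well, though less so. These 6 other probes had log2 differences from -0.16 to 1.25, with a mean of 0.63 (SE 0.24), and 4 of the 6 were above 0. Those 4 ran from 0.90 to 1.25. The others, probes 408 and 4152, were close to the floor in both groups (WT log2 -1.81 and -1.95). A difference is hardly resolved there, and both probes enter the mean. Of these 6, 0 differed as widely as AT3G23940. Among the tested probes whose number divides by 6, the 188 besides AT3G23940 averaged 0.45 (SE 0.05), against -0.03 (SE 0.01) for the 2939 with other numbers. Above 0 were 138 of the 188 and 1315 of the 2939, so 4 of 6 is little to go by. Of those 188, 2 exceeded AT3G23940.

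Probes next to it in number were shifted in the same direction. The 12 tested probes within 6 numbers to each side had a mean log2 difference of 0.58 (SE 0.17), and 11 of the 12 were above 0. The 22 within 12 numbers averaged 0.52 and the 57 within 36 numbers 0.37. In each of these windows 0 of the other probes reached the 2.55 of AT3G23940, and the highest was 2.19.

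**Figure D3:**
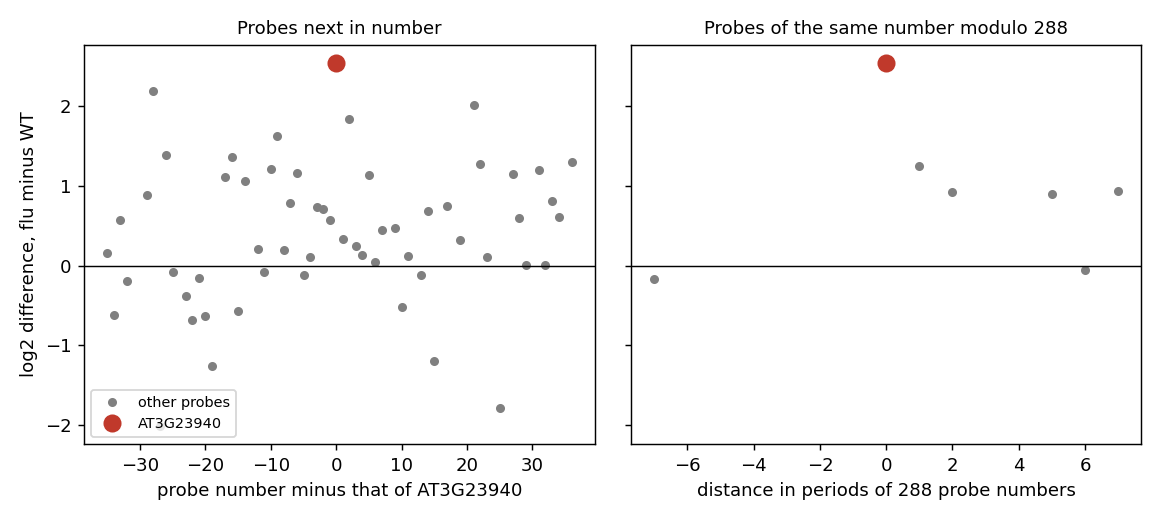
Log2 difference (flu minus WT) of the tested probes within 36 numbers of AT3G23940 (left, against distance in probe number) and of the 7 tested probes at its position in the period (right, against distance in periods). AT3G23940, the large point, is the highest in both panels, and most of the other points lie above 0.

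With the probe-number effect removed by subtracting, in each pair mean, the average of all tested probes at the same position, the log2 difference of AT3G23940 was 1.64 (SE 0.16), a ratio of 3.12. The corrected log2 level was 0.62 in flu and -1.02 in WT, against 0.88 and -1.67 before, so most of the correction fell on WT. By same-numbered pairs it was 1.59, 1.99 and 1.35, again widest in the second. The difference then ranked 34 of 3128 probes and 5 of the 619 with 1 gene. The position holds 7 tested probes, so AT3G23940 makes up a good part of the average taken from it. With its own value kept out of that average the difference was 1.92. The other ways of removing the effect gave 1.31 with the median in place of the mean, 2.08 with the mean over numbers of the same remainder modulo 6, and 1.97 and 2.03 with a local mean reaching 6 and 12 numbers to each side. The difference was above 0 by each of these, and between 1.31 and 2.08 its size depended on the method.

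**Figure D4:**
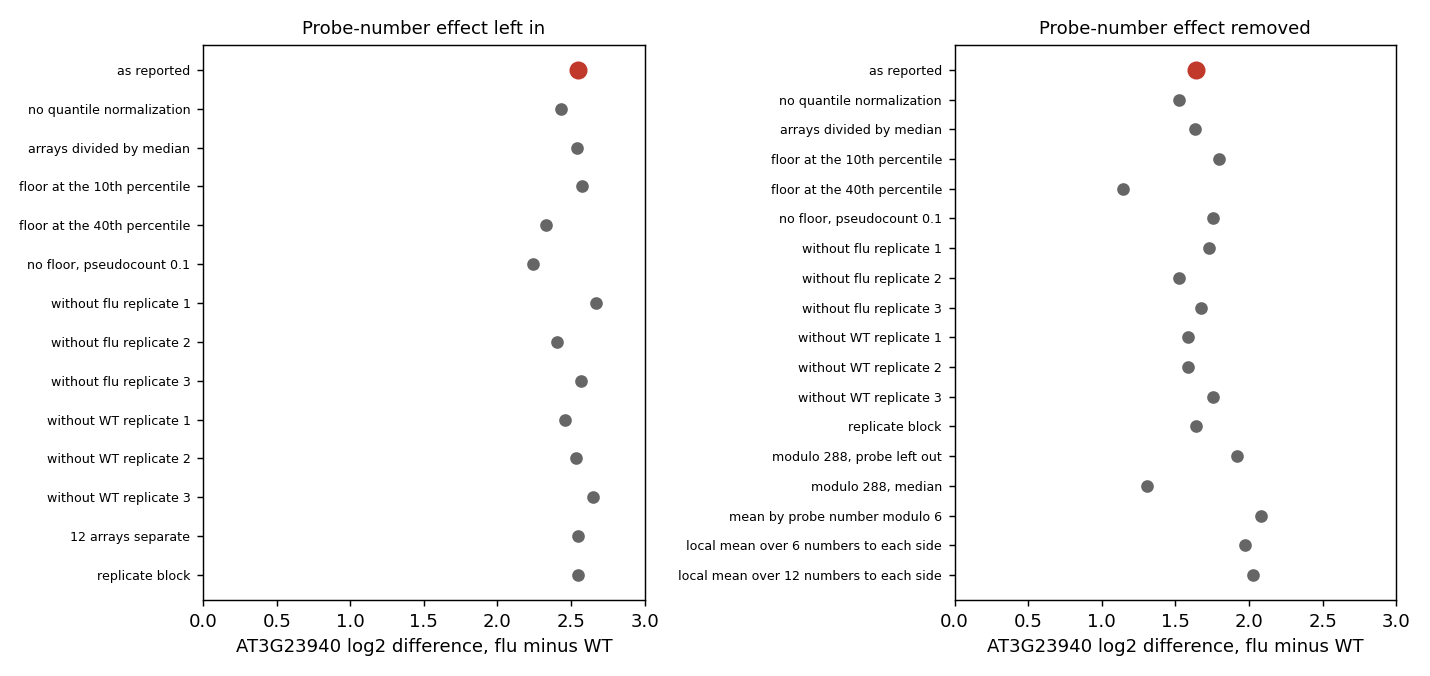
Log2 difference of AT3G23940 (flu minus WT) as reported (large point) and under each alternative, with the probe-number effect left in (left) and removed (right). Every point lies above 0. On the left they run from 2.24 to 2.67, and on the right from 1.15 to 2.08.

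The rest of the pathway was almost unmeasured. Of the 20 other genes listed for branched-chain amino acid synthesis, 1 had a probe of its own, AT3G58610 for ketol-acid reductoisomerase, the enzyme that makes the substrate of the dehydratase. It was dim in both groups, with normalised intensities from 0.209 to 0.399 (median 0.251) on the flu arrays and from 0.250 to 0.358 (median 0.304) on the WT arrays. The groups overlapped. In log2, flu minus WT was -0.13 (SE 0.16), with a limma adjusted p of 0.56. Removing the probe-number effect gave 0.38 (SE 0.13), with a limma adjusted p of 0.054, so the sign depends on that correction. Only 3 of the 6 flu arrays were above the floor, which limits how far a lower flu level could be seen. For the 12 genes listed for branched-chain amino acid breakdown and the 14 for plastid iron-sulfur cluster assembly, 0 had a probe of their own.

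Of the 23 genes listed for plastid iron-sulfur proteins 3 had a probe of their own, and 1 of these passed the threshold, downward. As background, 38.9% of all 3128 tested probes passed (limma, adjusted p below 0.05), 17.5% higher and 21.4% lower in flu, so 1 of 3 is near what all probes show. AT2G04700 encodes the catalytic subunit of ferredoxin-thioredoxin reductase, which passes electrons from ferredoxin to thioredoxins in the light. Its normalised intensity ran from 0.208 to 0.258 (median 0.237) on the flu arrays and from 0.423 to 0.856 (median 0.581) on the WT arrays. Every WT array was above every flu array. How many of all probes separate in this way was not counted, so nothing is read from the separation. It fell by 1.22 on the log2 scale (SE 0.23, limma adjusted p = 0.0081), and by 0.72 with the probe-number effect removed (limma adjusted p = 0.023). Since 5 of the 6 flu arrays were at the floor, the size of this difference depends on the floor, and with the floor at the 40th percentile it did not pass (log2 difference -0.69, limma adjusted p = 0.067).

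THIC, the iron-sulfur enzyme that makes the pyrimidine part of thiamine, ran from 0.616 to 0.780 (median 0.638) on the flu arrays and from 0.368 to 0.668 (median 0.469) on the WT arrays. The ranges overlapped. In log2, flu lay 0.45 above WT (SE 0.18), which did not pass (limma adjusted p = 0.10). Once the probe-number effect was removed it passed at 0.72 (limma adjusted p = 0.019), where 36.7% of all probes passed, 16.9% higher and 19.8% lower in flu. That background depends on the arrays fitted. The count of 1148 probes fell to 739, 597 and 691 without flu arrays 1 and 2, 3 and 4, and 5 and 6. Without the same-numbered WT arrays it was 1160, 1014 and 934. Fewer samples were fitted in each case, which by itself can lower the count. SIRB, the ferrochelatase that completes siroheme, was at or under the floor on 5 flu arrays and 2 WT arrays of 6 each. The difference in log2 was -0.50 (SE 0.29), with a limma adjusted p of 0.23, or -0.16 with the effect removed (limma adjusted p = 0.56), and it passed without WT arrays 3 and 4 (log2 difference -0.80, limma adjusted p = 0.024). THIC passed without these same arrays too (0.64, limma adjusted p = 0.0098).

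For plastid synthesis of other amino acids, 2 of the 67 listed genes had a probe of their own and 0 passed by limma. The flu mean of AT-HF, a histidine synthesis enzyme, was 0.280 ± 0.102 and its WT mean 0.277 ± 0.117 (SD, n = 3 pair means each). The difference in log2 was -0.04 (SE 0.20), with a limma adjusted p of 0.90. For AT5G10920, which encodes argininosuccinate lyase of arginine synthesis, the flu mean was 0.550 ± 0.109 and the WT mean 0.520 ± 0.212. The difference in log2 was 0.14 (SE 0.33), with a limma adjusted p of 0.76. Removing the probe-number effect gave 0.17 for AT-HF and 0.36 for AT5G10920, and neither passed (limma adjusted p = 0.38 and 0.13). A further 7 of these 67 genes lie only on probes shared with other genes and are not named from them. Over all 5 lists, 6 genes besides AT3G23940 were tested, with a median log2 difference of -0.08 against -0.04 over all probes, and 0.27 against -0.03 with the effect removed.

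**Figure D5:**
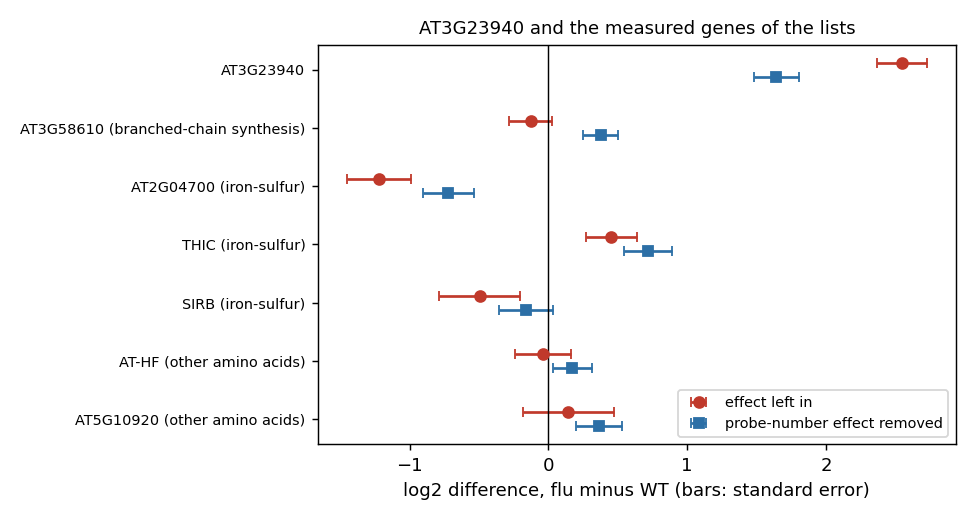
Log2 difference (flu minus WT, with its SE) of AT3G23940 and of the 6 other tested genes from the lists, with the probe-number effect left in (circles) and removed (squares). AT3G23940 is at 2.55 and 1.64, and the others lie between -1.22 and 0.72.

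The genes whose profile was most like that of AT3G23940 were taken by the root mean square difference of log2 values over the 6 pair means, each probe centred on its own mean, among 617 other tested genes with a probe of their own. Since AT3G23940 differs so widely between the groups, this measure picks genes with a like contrast, and it is a description. The closest was AT5G46390, of the C-terminal processing peptidase family, at a distance of 0.295. It stood at 1.06 ± 0.214 in flu (SD, n = 3 pair means) and did not exceed the floor on any of the 6 WT arrays. Like AT3G23940, it was dimmest in the first flu pair (0.814) and brightest in the second (1.19).

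AT2G30100 followed at a distance of 0.352, with 2.33 ± 0.0536 in flu and 0.502 ± 0.102 in WT. Its number, too, is divisible by 6, and all 6 WT arrays exceeded the floor. Its 3 flu pairs lay within 2.28 to 2.38, so it does not share the bright second pair of AT3G23940. AT4G09040 (0.401), AT3G25680 (0.404) and AT3G52960 (0.420) came next, AT3G52960 being a plastid peroxiredoxin that breaks down peroxides. Their flu means were 1.002, 0.890 and 1.21, and 2, 0 and 4 of their 6 WT arrays were above the floor. With the probe-number effect removed, the log2 difference was 1.59 for AT2G30100, 1.31 for AT4G09040 and 1.23 for AT3G52960. The values of the latter 2 depend on the floor, which some of their WT arrays did not exceed. No corrected size is given for AT5G46390 and AT3G25680, whose WT values were all at the floor.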

How the data were processed

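The series table holds 1 intensity per probe and array. The intensities are deposited values on a linear scale, with a maximum of 100 on each array as the values show, and the sources used here do not say how the authors corrected or scaled them. The number of arrays limits the precision. The array medians differed by 15.4%, so arrays were quantile normalised, floored at the 25th percentile (0.250) and log2 transformed. Leaving out 311 probes that never rose above the floor, 3128 were tested.

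Arrays 1 and 2, 3 and 4, and 5 and 6 of a group deviated together (correlations 0.21 to 0.68, against -0.55 to -0.04 for other arrays of a group) and were averaged. Same-numbered pair means of the groups also deviated together (0.26 to 0.46), so the numbers may pair the samples. No label gives such a pairing or says what the numbers stand for, and the main fit leaves it out. The fit used limma 3.58.1 (R 4.3.3) on the pair means (two-sided, Benjamini-Hochberg over all tested probes, threshold 0.05), with the group only. A fit with the pair number as a block was an alternative, as were other normalisations, floors, ways of removing the probe-number effect and leaving out each pair. The fit was tested on simulated data, which checks the code and not the results given here.

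Probe names came from GEO's platform annotation and the TAIR10.1 gene table: 692 of 3439 have 1 gene (690 matched), 870 several and 1877 are not listed and stay unnamed. The sources used here name no build for the probes, so no coordinates are printed, and no sequences were used. The genes named are AT3G23940, the tested genes of the 5 lists and the 5 genes of most similar profile. A further 2 lists, drawn by annotation words for amino acid enzymes and iron-sulfur proteins, found 0 genes with a probe of their own. The gene and the lists were chosen with earlier results of these data known.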

Additional observations from a re-analysis of the deposited data

Results flagged for a closer look

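For AT3G58610, the ketol-acid reductoisomerase gene, flu array 2 stood apart from the other 5 flu arrays. It read 0.399 in normalised intensity and the next highest flu array 0.276, a gap of 0.645 of the whole range of the 6 arrays, above the 95% critical value of Dixon's test. That test takes the 6 arrays as separate, while they count as 3 pair means in the report, so its level is only a guide. This was 1 of 14 groups of arrays examined, and chance flags about 1 group in 20. For AT3G23940 itself the gap was 0.068 of the range in flu and 0.435 in WT, both under the limit.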

How the results depend on the processing

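The log2 difference of AT3G23940 was above 0 under all 13 alternatives tried, from 2.24 to 2.67, and moved by more than the spread between pair means (0.23) only with no floor and a pseudocount of 0.1, where it was 2.24. Leaving out each pair gave 2.41 to 2.67. With the probe-number effect removed it was above 0 under all 17 alternatives. It moved by more than the spread of 0.20, from 1.64, with the floor at the 40th percentile (1.15), the probe itself left out of the mean (1.92), the median (1.31), the mean modulo 6 (2.08) and local means over 6 or 12 numbers to each side (1.97 and 2.03). Its percentile stayed within 92.8 to 94.4 in flu and 27.4 to 35.0 in WT. The groups are balanced, so the replicate block and the 12 arrays taken as separate cannot change the difference and lend it nothing. With the block it stayed at 2.55 and, with the effect removed, at 1.64. Its SE with the effect left in was 0.16 with the block, against 0.18 in the main fit. The block changed no call of a list gene and called 1371 probes against 1216. Leaving out each pair gave 840 to 1299 probes, and with the effect removed 597 to 1160 against 1148, the lowest without flu arrays 3 and 4, with 739 without flu arrays 1 and 2 and 691 without flu arrays 5 and 6, where fewer samples were fitted. Of the 6 list genes 1 passed as reported, 0 with the floor at the 40th percentile, 2 with the 12 arrays taken as separate and 2 with the effect removed, an alternative chosen after seeing the data. Over all probes, 1216 (38.9%), 1042, 1732 and 1148 (36.7%) passed in these same settings. Leaving out each pair gave 1 to 3 list genes, the 3 without WT arrays 3 and 4, where 1299 of all probes passed. With 6 genes, nothing is read from these counts. Signs turned only for genes that did not pass: AT3G58610 with the floor at the 40th percentile (0.023) and with the effect removed (0.38), and AT-HF with that floor (9.9e-04), with a pseudocount (0.062) and with the effect removed (0.17). Leaving out each pair gave -0.18 to 0.13 for AT-HF, above 0 without flu pair 2 (0.056), flu pair 3 (0.0018) or WT pair 1 (0.13), and -0.18 to 0.44 for AT5G10920, below 0 without flu pair 1 (-0.011) or WT pair 2 (-0.18). The cause of these changes was not tested. Dim probes limit what can be seen, since values under 0.250 are not resolved.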
